A study of Mus musculus with 22 samples.

Results

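Amino acid and neurotransmitter carriers of the solute carrier (SLC) families 1, 3, 6, 7, 17, 18, 32, 36, 38 and 43 were followed in ribosomal mRNA of optic nerve astrocytes. The members were the protein coding genes of the count table with a symbol of these families. Slc1a2 and Slc1a3, the main glial glutamate transporters, were left out by this rule. That gave 69 members out of 29367 genes, among them Slc7a6os, which shares the name of a neighbouring carrier and is not itself a transporter. The mice carried an HA tag on the ribosomal protein Rpl22 (B6J.129(Cg)-Rpl22tm1.1Psam/SjJ, homozygous) and the transgene Tg(GFAP-Cre)73.12Mvs/J from a B6.Cg line, in which the mouse GFAP promoter drives a constitutive Cre, so that any cell descending from a cell with GFAP activity may carry the tag. Both parent lines had a C57Bl/6 background. All animals were 3 to 4 months old and all received microbeads in the eye to raise the intraocular pressure. The unmyelinated optic nerve head (ONH) and an equal length of the adjoining myelinated optic nerve proper (ONP) were taken from the same animals 7 or 30 days later. Each library is a pool of 4 mice (2 male, 2 female), with 4 pools per region at 7 days and 7 pools per region at 30 days, 22 libraries in all, and uninjured nerves were not analysed here.

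Members of the SLC families move amino acids, transmitters and related small molecules across membranes, mostly driven by sodium, protons or exchange. In the nerve, astrocytes take up glycine and GABA through SLC6 carriers, release glutamine through system N carriers of the SLC38 family, and exchange large neutral amino acids through light chains of SLC7 that need the heavy chain Slc3a2 to reach the plasma membrane. SLC17, SLC18 and SLC32 hold the vesicular carriers of glutamate, monoamines and GABA, which are textbook markers of neurons, and the lysosomal carrier Slc17a5. Other members sit on lysosomes, where Slc38a9 reports arginine to the mTORC1 kinase.

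Total counts per library ranged from 16292489 to 33307092, so that 3 counts, taken as the smallest detectable amount, equal 0.0912 to 0.192 CPM, the count scaled to library size. This limit covers counting error only. The astrocyte markers Gfap, Aqp4, Aldh1l1, S100b, Sox9, Gja1 and Aldoc were all present and summed to 12900 to 31800 CPM over the libraries. The study reported by immunostaining that HA did not colocalise with the oligodendrocyte marker OLIG2. By RT-qPCR of ONH tissue, it found the immunoprecipitate enriched for astrocyte markers only. Oligodendrocyte markers nevertheless summed to 13600 to 40500 CPM in the ONH and to 25800 to 109000 CPM in the ONP. Whether they came from tagged cells or from background RNA was not tested. Photoreceptor markers stood apart in 3 ONH pools. They summed to 5300 and 1024 CPM in pools 6 and 5 of the ONH at 7 days and to 1831 CPM in replicate 4 at 30 days, against 79.1 to 364 CPM in the other ONH pools. Microglial markers summed to 2950 and 3421 CPM in replicates 5 and 7 of the ONP at 30 days, against 208 to 990.1 CPM in the other ONP pools of that time, and to 3066 CPM in replicate 7 of the ONH. The p-values below measure the spread between these pools. Fits described as without the pools of high microglial sums left out replicates 5 and 7 of the ONP at 30 days only. Replicate 7 of the ONH was kept in them. The 7 day pools are named here by their numbers in the count table (1, 3, 5 and 6 in the ONH, 1, 2, 5 and 6 in the ONP), and those numbers do not tie a pool of one region to a pool of the other.

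Of the 69 members, 39 exceeded 3 counts in all 22 libraries, 24 did so in some and 6 in none. Per kilobase of merged exons, the member with the highest mean in each of the 4 groups was Slc3a2, the heavy chain of the heteromeric exchangers. Its level was 69.9 ± 16.4 CPM per kb (SD, n = 4) in the ONH at 7 days, 51.7 ± 3.05 (n = 7) in the ONH at 30 days, 66.7 ± 5.23 (n = 4) in the ONP at 7 days and 55.8 ± 6.48 (n = 7) in the ONP at 30 days. Slc6a6, the taurine carrier, came next in the ONH, at 36.8 ± 10.5 and 35.4 ± 8.02 CPM per kb at 7 and 30 days. The place behind Slc3a2 was held in the ONP by Slc6a9, the glycine transporter GlyT1, at 7 days (32.8 ± 2.93 CPM per kb) and by Slc38a1, a sodium coupled glutamine carrier, at 30 days (43.1 ± 14.5 CPM per kb). The pools of these neighbours overlapped with those of the next members in rank, so that their order was not firm. In the ONP at 30 days the pools of Slc38a1 reached 61.7 CPM per kb and overlapped those of Slc3a2, which began at 48.1. In GRCm38 (GENCODE M21), the genes that the comparisons turn on lie at chr15:96687392-96699730 (Slc38a2, minus strand), chr9:107650634-107669530 (Slc38a3, minus), chrX:8271133-8280179 (Slc38a5, plus), chr4:117834506-117875198 (Slc6a9, plus) and chr11:75531694-75577575 (Slc43a2, plus), and counts cover all exons of a gene. Slc32a1, the vesicular GABA carrier, did not exceed 3 counts in any library.

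**Figure D1:**
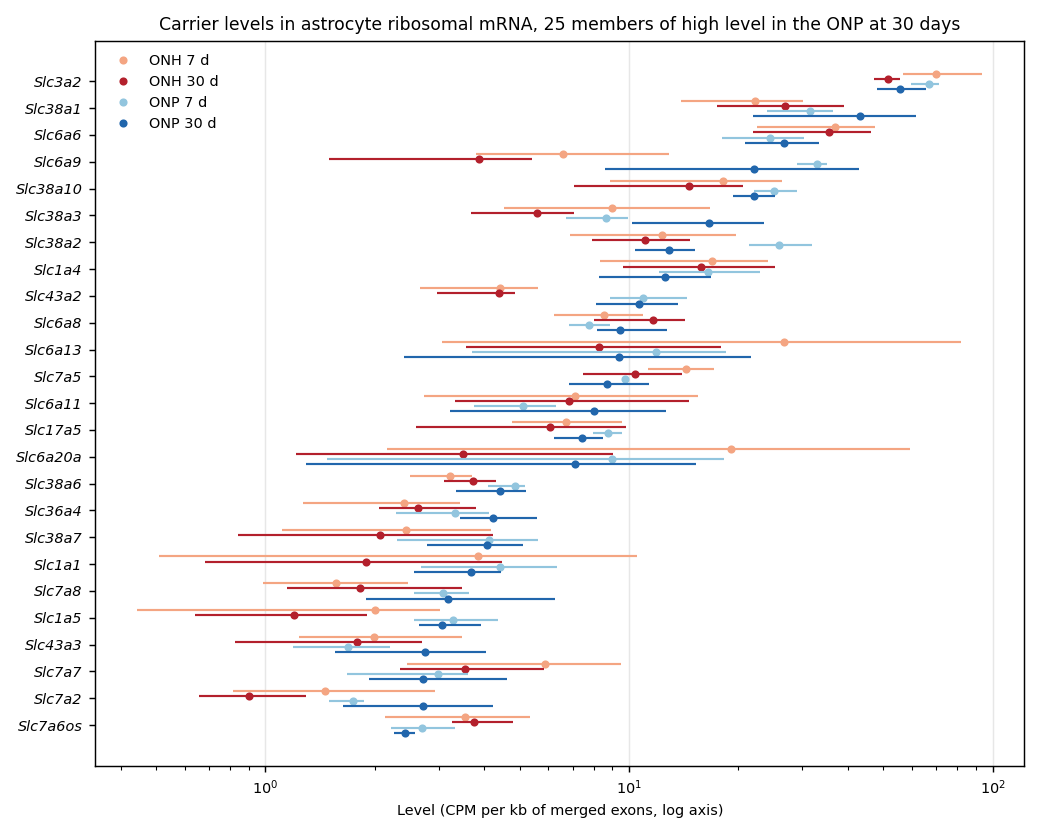
Level of 25 members of high level in the ONP at 30 days, in CPM per kb of merged exons on a log axis. Points are group means and bars run from the lowest to the highest pool of a group (4 pools at 7 days, 7 at 30 days). Slc3a2 has the highest mean in all 4 groups, while Slc6a9 and Slc43a2 sit lower in both ONH groups than in both ONP groups.

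Several carrier genes are textbook targets of the transcription factor ATF4, which answers amino acid shortage through the C/EBP-ATF response element. The element was searched as TGATGNAAN on both strands in the RefSeq promoter windows (GRCm38.p6, 250 bases before to 50 after a start), which exist for 52 of the 69 members. It was found in 4 of these 52 (7.69%), Slc7a11, Slc1a4, Slc7a7 and Slc17a1, against 4.5% of the 27025 genes with a window. Counted by window, 5 of 76 of the members (6.58%) and 3.95% of all 32851 hold it. Of the 9 members that changed over time in the ONP, 8 have a window and 0 hold the element in it. The upstream 120 bases of 2 promoters are shown, that of Slc7a11, the cystine and glutamate exchanger, because it holds the element on both strands, 66 and 48 bases before the start, and that of Slc38a2 because this carrier had the smallest adjusted p of the members over time. Capitals mark the element, which is absent from the Slc38a2 stretch. Sequence outside the windows was not searched, so that a gene without a match may hold the element elsewhere. A match is a description of letters and not a measured binding site.
Slc7a11 promoter, GRCm38.p6 chr3:50443614-50443733, minus strand: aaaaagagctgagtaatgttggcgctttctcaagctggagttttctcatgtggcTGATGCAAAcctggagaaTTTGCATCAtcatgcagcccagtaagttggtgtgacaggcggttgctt
Slc38a2 promoter, GRCm38.p6 chr15:96699729-96699848, minus strand: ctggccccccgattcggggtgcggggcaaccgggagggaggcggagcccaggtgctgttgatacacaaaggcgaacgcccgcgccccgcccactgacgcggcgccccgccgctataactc

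The regions were compared at 30 days to ask how the ribosomal mRNA of the ONH pools differs from that of the myelinated nerve. Carriers of glycine and neutral amino acids were among those lower in the ONH, Slc6a9 by 5.74 times, Slc38a3 by 2.97 times and Slc43a2 by 2.43 times between the group means. With edgeR's quasi-likelihood test and Benjamini-Hochberg adjustment over all genes, 16 of the 41 members tested differed (39%, against 41.8% of the 15133 genes tested). Of these, 14 were lower in the ONH and 2 higher, while 20% of all genes were lower and 21.8% higher. The median log2FC was -0.19 for the members and -0.005 for all genes tested. The pools of both regions did not overlap for 8 of the members, against 16.5% of all genes tested. In these bulk libraries, fewer cells of a type and less RNA per cell cannot be told apart.

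Among the transmitter carriers, Slc6a9 ranged from 7.70 to 27.9 CPM (median 20.5) in the 7 ONH pools and from 44.1 to 221 CPM (median 102) in the 7 ONP pools. The groups did not overlap (log2FC -2.48, SE 0.34, adjusted p = 4.35e-05). In the ONP, replicate 3 was lowest in Slc6a9 (44.1 CPM) and in the summed oligodendrocyte markers (25830 CPM). Replicates 5 and 4 were highest in Slc6a9 (221 and 149 CPM) and in that sum (84620 and 66610 CPM). In the ONH, the pool with the lowest sum, replicate 3 at 13630 CPM, had 23.6 CPM of Slc6a9. Whether oligodendrocytes carried this mRNA was not tested. Slc6a11 (GAT3) had a log2FC of -0.19 (SE 0.36, adjusted p = 0.691), Slc6a12, the betaine and GABA carrier, 0.067 (SE 0.58, adjusted p = 0.937) and Slc6a13 (GAT2) -0.13 (SE 0.45, adjusted p = 0.835). None of these 3 carriers passed the test between the regions. The exons of Slc6a9 share 1429 bases with the antisense gene Ccdc24, and without strand information their reads cannot be told apart. The same limit holds for other members called at 30 days and named below. Antisense exons overlap those of Slc1a1 by 2631 bases, Slc7a2 by 635, Slc38a10 by 367 and Slc6a6 by 117.

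The SLC38 carriers had 8 tested members, of which 4 were lower in the ONH and 0 higher. Slc38a3, the system N carrier that exports glutamine, ranged from 19.5 to 37.3 CPM (median 34.7) in the ONH and from 53.6 to 124 CPM (median 89.4) in the ONP. These groups did not overlap (log2FC -1.53, SE 0.22, adjusted p = 6.9e-05). Slc38a7, a lysosomal glutamine carrier, ranged from 3.49 to 17.5 CPM (median 7.78) in the ONH and from 11.5 to 21.1 CPM (median 17.6) in the ONP, with overlap. Its log2FC was -0.93 (SE 0.30, adjusted p = 0.0187, and 0.0548 without the ONP pools of high microglial sums). Slc38a10 ranged from 45.2 to 132 CPM (median 100) against 124 to 162 CPM (median 142), and 6 of 7 ONH pools lay below the lowest ONP pool (log2FC -0.56, SE 0.17, adjusted p = 0.0148). Slc38a1 had a mean of 462 CPM in the ONH and 743 CPM in the ONP (log2FC -0.65, SE 0.23, adjusted p = 0.032), but it did not pass in 7 of the 14 fits that left out 1 pool (adjusted p 0.0524 to 0.0723). Those pools were replicates 4, 5 and 6 of the ONH and 1, 2, 3 and 6 of the ONP. Slc38a2 and Slc38a5 had log2FC of -0.18 (SE 0.15, adjusted p = 0.335) and -0.19 (SE 0.52, adjusted p = 0.795) at this time.

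Carriers of neutral and cationic amino acids outside SLC38 gave the remaining differences. Slc43a2, a facilitator of large neutral amino acids, ranged from 29.8 to 48.9 CPM (median 45.7) in the ONH and from 81.3 to 137 CPM (median 101) in the ONP. No pools overlapped (log2FC -1.24, SE 0.13, adjusted p = 5.28e-06), and 922 exon bases of the gene are shared with the antisense gene Gm45606. Slc7a2, a cationic amino acid carrier, ranged from 5.98 to 11.8 CPM (median 7.87) against 14.9 to 38.7 CPM (median 25.2) in the ONP. Its relative Slc7a3 ranged from 0.787 to 3.72 CPM (median 2.24) against 4.97 to 7.96 CPM (median 6.14). Both were lower in all 7 ONH pools than in any ONP pool (log2FC -1.55, SE 0.23, adjusted p = 8.33e-05 for Slc7a2, and -1.59, SE 0.33, adjusted p = 0.00136 for Slc7a3). Slc1a5, the neutral amino acid exchanger ASCT2, ranged from 2.67 to 7.92 CPM (median 4.52) against 11.1 to 16.3 CPM (median 11.7), again without overlap (log2FC -1.31, SE 0.25, adjusted p = 0.000575).

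Differences with overlapping pools were found for 5 more carriers. Slc36a4, of the SLC36 family, ranged from 13.4 to 24.8 CPM (median 14.5) in the ONH and from 22.4 to 36.6 CPM (median 27.5) in the ONP (log2FC -0.65, SE 0.17, adjusted p = 0.00502). Slc6a19, a neutral amino acid carrier of low level here, ranged from 0 to 2.16 CPM (median 0.502) against 1.98 to 4.37 CPM (median 3.76) (log2FC -2.38, SE 0.70, adjusted p = 0.0132). Without replicate 5 of the ONH the log2FC was -3.13. Slc1a1, the glutamate carrier EAAC1, had means of 15.6 CPM in the ONH and 30.4 CPM in the ONP (adjusted p = 0.0338), and Slc7a14, a relative of the cationic carriers, 6.69 and 11.2 CPM (adjusted p = 0.0459). Slc6a6 was the only transporter called higher in the ONH, with 299.7 against 226 CPM (log2FC 0.45, SE 0.16, adjusted p = 0.0377). Leaving out 1 pool ended the call of Slc1a1 in 6 of 14 fits (adjusted p 0.0556 to 0.0634, replicates 1, 3 and 5 of the ONH and 1, 4 and 6 of the ONP). It ended that of Slc7a14 in 10 of 14 (adjusted p 0.0524 to 0.0857), all but replicates 2, 3 and 5 of the ONH and 6 of the ONP, and that of Slc6a6 in 10 of 14 (adjusted p 0.0508 to 0.0773), all but replicates 1 and 6 of the ONH and 1 and 2 of the ONP. Without the ONP pools of high microglial sums these 3 calls were also lost (adjusted p = 0.0582 for Slc1a1, 0.11 for Slc7a14 and 0.147 for Slc6a6). Slc7a6os, which is no carrier, ranged from 13.7 to 20.2 CPM (median 14.4) in the ONH and from 9.51 to 10.9 CPM (median 10.3) in the ONP and did not overlap (log2FC 0.67, SE 0.12, adjusted p = 0.000428).

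No subunit of the heteromeric exchangers passed the test at 30 days: 7 were tested, and the smallest adjusted p was 0.0711, for Slc7a8 (LAT2). Slc3a2 ranged from 166 to 197 CPM (median 183) in the ONH and from 169.7 to 232 CPM (median 190.2) in the ONP, and the pools overlapped (log2FC -0.067, SE 0.084, adjusted p = 0.55). Its light chain Slc7a5 (LAT1), the carrier of large neutral amino acids, ranged from 27.7 to 51.9 CPM (median 38) against 25.4 to 42.2 CPM (median 33.04), also with overlap (log2FC 0.29, SE 0.15, adjusted p = 0.135).

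Cell type markers differed along with these carriers. Of 7 oligodendrocyte markers, 6 were lower in the ONH, with sums of 13600 to 40500 CPM in the ONH and 25800 to 84600 CPM in the ONP. Of 3 markers of oligodendrocyte precursors, 2 were lower (71.5 to 121 against 154 to 288 CPM). Among the 7 astrocyte markers, Gfap and Aqp4 were lower and S100b was higher in the ONH (log2FC -0.50, -1.43 and 0.76). Markers that came with the ONH were higher there, with 6 of 6 of photoreceptors, 4 of 4 of melanocytes, 3 of 4 of pigment epithelium and 3 of 3 of Mueller glia. Of the other lists, 1 of 8 endothelial, 2 of 5 mural cell, 1 of 7 fibroblast and 3 of 8 tested neuronal markers were higher, and 1 mural cell, 2 neuronal and 1 of 7 microglial markers were lower. None of 1 tested surface epithelium marker passed. No oligodendrocyte or precursor marker was at 0 in a whole group, and their part in the difference of the carriers was not tested.

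**Figure D2:**
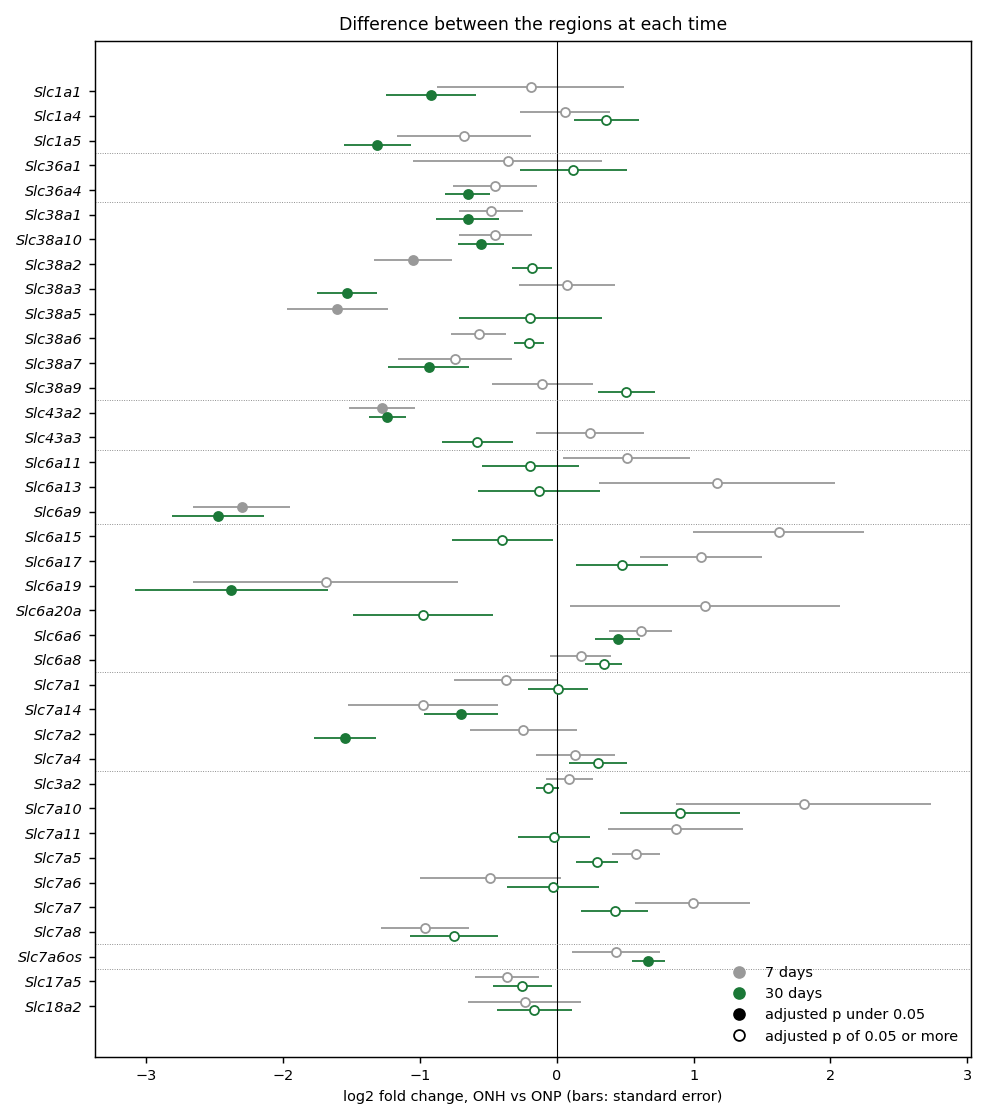
log2FC of ONH vs ONP at 7 days (grey) and 30 days (green) for 38 members tested at both times with a standard error under 1, grouped by family. Bars are standard errors and filled points have an adjusted p under 0.05. Slc6a9 and Slc43a2 lie below 0 with filled points at both times, while Slc38a3 lies near 0 at 7 days and below it at 30 days.

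At 7 days, with 4 pools per region, 7 of 44 members tested differed between the regions (15.9%, against 13.2% of the 14752 genes tested), 5 lower in the ONH and 2 higher, where 6.81% of all genes were lower and 6.34% higher. Without pool 2 of the ONP 4 members were called. Scaling by library size alone gave 4 lower and 3 higher. Slc6a9 was at 29.8, 19.5, 20.2 and 66.1 CPM in the ONH and at 149, 166, 180.2 and 181 CPM in the ONP. Every ONH pool was lower than every ONP pool (log2FC -2.30, SE 0.36, adjusted p = 0.00217). Slc43a2 was at 42.4, 56.5, 26.7 and 52.0 CPM in the ONH and at 93.6, 89.3, 109.7 and 145 CPM in the ONP, without overlap (log2FC -1.28, SE 0.24, adjusted p = 0.00666). In all, 10 members did not overlap between the regions, against 21.7% of all genes tested at this time.

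Slc38a2, the stress inducible system A carrier SNAT2, and Slc38a5, a glutamine carrier of system N, were lower in the ONH at 7 days. Slc38a2 was at 120.4, 79.5, 60.8 and 174 CPM in the ONH and at 189, 235, 205 and 282 CPM in the ONP. The pools did not overlap (log2FC -1.05, SE 0.29, adjusted p = 0.0366), yet the call was lost in 7 of the 8 fits that left out 1 pool, all but that without pool 6 of the ONH (adjusted p 0.058 to 0.11). Slc38a5 was at 10.1, 5.47, 10.5 and 22.5 CPM against 36.5, 45.3, 32.9 and 34.5 CPM (log2FC -1.60, SE 0.37, adjusted p = 0.0171, and 0.0581 without pool 2 of the ONP). Without the 2 ONH pools of high photoreceptor sums its log2FC was -2.28. All 4 ONH pools were lower than any ONP pool. Slc7a5 was at 63.5, 57.8, 41.9 and 49.3 CPM in the ONH and at 35.9, 36.1, 36.3 and 36.2 CPM in the ONP, so that its pools did not overlap either (log2FC 0.58, SE 0.18, adjusted p = 0.0525). It passed in DESeq2 (adjusted p = 0.0118), in limma-voom (0.026), with library size alone (0.0247), with all groups in 1 fit (0.0316) and without the pools of high photoreceptor sums (0.0147). Among the 8 fits that left out 1 pool, Slc7a5 passed only without pool 5 of the ONH (adjusted p = 0.0209). The largest adjusted p of these fits was 0.142, without pool 6 of the ONP. Slc3a2 was at 220.4, 200.1, 236 and 330.4 CPM in the ONH and at 251, 233, 210.3 and 248 CPM in the ONP (log2FC 0.093, SE 0.17, adjusted p = 0.766).

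The 2 members called higher in the ONH at 7 days had low levels and passed the filter on low counts only through the ONH, so that their calls add nothing to their values. Slc36a2, a proton coupled carrier of small neutral amino acids, was at 3.77, 4.50, 1.15 and 2.69 CPM in the ONH and at 0 in all 4 ONP pools. Against the floor of 3 counts it was at least 19.7-fold higher in the ONH, and at 30 days it was not tested between the regions. Slc1a7, the glutamate carrier EAAT5 known from the retina, was at 1.91, 0.943, 5.09 and 1.203 CPM in the ONH and at 0, 0, 0.249 and 0 CPM in the ONP (adjusted p = 0.0247). The call did not hold without pool 5 of the ONH or without pool 1, 2 or 6 of the ONP (adjusted p 0.0672 to 0.0794). Photoreceptor markers summed to 1024 CPM in pool 5 of the ONH, the highest in Slc1a7. They summed to 5300 CPM in pool 6 with 1.203 CPM of Slc1a7, to 143 CPM in pool 1 with 1.91 CPM and to 140 CPM in pool 3 with 0.943 CPM. At 30 days, ONH replicate 4 was highest in the photoreceptor sum (1831 CPM) and in Slc1a7 (3.246 CPM). Replicates 2 and 7 had the lowest ONH sums of that time (79.1 and 83.6 CPM), with 0.0431 and 0 CPM of Slc1a7. Whether photoreceptors or other retinal cells carried this mRNA was not tested. Without pool 5 of the ONP at 7 days the fitted log2FC of Slc1a7 went from 5 to 8.6.

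Cell type markers also differed between the regions at 7 days. Of 7 oligodendrocyte markers, 7 were lower in the ONH, with sums of 19100 to 36400 CPM in the ONH and 81300 to 109000 CPM in the ONP. Of 3 precursor markers 1 was lower, and Aqp4 was lower among the 7 of astrocytes. Higher in the ONH were 5 of 6 photoreceptor markers, 4 of 4 of melanocytes, 3 of 4 of pigment epithelium, 3 of 3 of Mueller glia and 3 of 8 of neurons, of which 1 was lower. Of 8 endothelial, 5 mural cell and 7 fibroblast markers 1 each was higher, and 0 of 7 microglial and 0 of 5 surface epithelial markers passed. Their part in the differences of the carriers was not tested.

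Of the 12 vesicular and lysosomal carriers, 3 were tested at 7 days with 0 called. Slc17a7, the vesicular glutamate transporter of neurons, was at 2.35, 1.338, 16.8 and 30.9 CPM in the ONH at 7 days and at 0, 0.192, 1.86 and 0 CPM in the ONP (adjusted p = 0.058). At 30 days it ranged from 0.307 to 22.4 CPM (median 2.603) in the ONH and from 0 to 0.265 CPM (median 0.0406) in the ONP, and it did not pass the filter on low counts. Other fits called it higher in the ONH. At 30 days these were DESeq2 (adjusted p = 1.78e-06), no filter (0.000524), all groups in 1 fit (0.00119) and that without the ONP pools of high microglial sums (0.00402). At 7 days they were no filter (0.0247) and all groups in 1 fit (0.0241). The 3 highest values, 30.9, 22.4 and 16.8 CPM, came from the 3 ONH pools with the highest photoreceptor sums (5300, 1831 and 1024 CPM). Without the 2 of these pools taken at 7 days the log2FC of that time was 1.79, against 4.59 with them.

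Over time in the ONP, from 7 to 30 days, carriers of the SLC38 family moved in both directions. Slc38a2 fell to 0.50 and Slc38a5 to 0.0771 of their 7 day means, while Slc38a3 rose to 1.91 times its mean. Of 43 members tested, 9 differed (20.9%, against 17% of the 15491 genes tested), 3 higher and 6 lower at 30 days, with 7.82% of all genes higher and 9.21% lower. The median log2FC was -0.17 for the members and -0.008 for all genes. The SLC38 family held 4 of the 9, the SLC6 carriers 3, the cationic carriers 2, and 0 came from the SLC1, SLC36, SLC43, heteromeric exchanger or vesicular groups. Without pool 2 of 7 days 5 members were called, and without replicate 5 of 30 days 12 were.

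Slc38a2 was at 189, 235, 205 and 282 CPM in the ONP at 7 days and ranged from 92.02 to 134 CPM (median 114) at 30 days. No 30 day pool reached the 7 day range, and the call held in all 11 fits that left out 1 pool (log2FC -1.03, SE 0.12, adjusted p = 0.00054). Slc38a5 was at 36.5, 45.3, 32.9 and 34.5 CPM at 7 days and ranged from 0.738 to 6.34 CPM (median 2.09) at 30 days. These groups did not overlap (log2FC -3.73, SE 0.50, adjusted p = 0.00103), and this call also held in all 11 fits. The 2 highest 30 day values, 6.34 and 5.44 CPM, were those of replicates 5 and 7, and without both the log2FC was -4.48. Slc38a3 was at 35.5, 43.8, 51.1 and 52.5 CPM at 7 days and ranged from 53.6 to 124 CPM (median 89.4) at 30 days. Its pools did not overlap, and it was called higher in all 11 fits (log2FC 0.90, SE 0.22, adjusted p = 0.016, and 0.058 when all 4 groups shared 1 fit). Pools of the 2 times did not overlap for 4 members, against 12.1% of all genes tested.

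Slc38a9, the lysosomal arginine sensor, was at 16.02, 28.6, 20.6 and 18.8 CPM at 7 days and ranged from 8.91 to 17.2 CPM (median 11.8) at 30 days. All but 1 of the 30 day pools lay below the lowest 7 day pool (log2FC -0.81, SE 0.20, adjusted p = 0.0194, and 0.0695 without pool 2 of 7 days). Of the cationic carriers, Slc7a14 was at 29.7, 29.6, 15.1 and 34.5 CPM at 7 days and ranged from 6.11 to 14.4 CPM (median 11.8) at 30 days (log2FC -1.32, SE 0.24, adjusted p = 0.00428). The ranges did not overlap, and the call held without each pool in turn. Slc7a1, the widely expressed cationic carrier CAT1, was at 9.48, 11.96, 9.98 and 11.9 CPM against 4.48 to 10.5 CPM (median 5.36) at 30 days (log2FC -0.82, SE 0.23, adjusted p = 0.03). That call held in 3 of 11 fits that left out 1 pool, those without ONP replicate 5 or 7 of 30 days or pool 5 of 7 days, and the adjusted p was 0.0505 to 0.0948 in the others.

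Among SLC6 carriers, Slc6a12 was at 20.9, 21.0, 4.72 and 37.5 CPM at 7 days and ranged from 1.86 to 12.1 CPM (median 3.78) at 30 days. The 7 day pool at 4.72 CPM lay within the later range (log2FC -2.10, SE 0.53, adjusted p = 0.0201, and 0.0842 without pool 6 of 7 days). Slc6a17, a neutral amino acid carrier of synaptic vesicles, was at 1.90, 4.22, 6.71 and 3.34 CPM and ranged from 3.98 to 14.7 CPM (median 10.4) at 30 days (log2FC 1.27, SE 0.40, adjusted p = 0.0453). Slc6a19 was at 1.53, 0.512, 2.15 and 1.19 CPM and ranged from 1.98 to 4.37 CPM (median 3.76) at 30 days (log2FC 1.30, SE 0.39, adjusted p = 0.0379). Pools of both times overlapped for both genes. Leaving out 1 pool ended the call of Slc6a17 in 8 of 11 fits (adjusted p 0.0564 to 0.113), where it held without ONP replicate 4 or 7 of 30 days or pool 5 of 7 days. It ended that of Slc6a19 in 7 of 11 (0.0606 to 0.095), where it held without replicate 5, 6 or 7 or pool 5.

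Slc3a2 was at 251, 233, 210.3 and 248 CPM in the ONP at 7 days and ranged from 169.7 to 232 CPM (median 190.2) at 30 days (log2FC -0.29, SE 0.098, adjusted p = 0.057). Slc7a5 ranged from 25.4 to 42.2 CPM (median 33.04) at 30 days, with 6 of 7 pools below its 7 day values of 35.9, 36.1, 36.3 and 36.2 CPM (log2FC -0.20, SE 0.13, adjusted p = 0.322). Without replicates 5 and 7, the ONP pools with the highest microglial sums, 14 members were called. The 9 calls were kept and 5 were added. Among the latter, Slc38a1 (log2FC 0.66, adjusted p = 0.0203), Slc6a11 (0.91, adjusted p = 0.0102) and Slc7a2 (0.83, adjusted p = 0.0131) were higher at 30 days, and Slc3a2 (-0.35, adjusted p = 0.0111) was lower. This setting was chosen after the values were seen. The 30 day pools it kept had microglial sums of 208 to 990.1 CPM, all below the 1300 to 2200 CPM of 7 days. It therefore does not even out these markers between the times. When all 4 groups shared 1 fit, 3 members were called, Slc38a2 and Slc38a5 lower and Slc36a2 higher at 30 days. Slc36a2 was at 0 in all 4 ONP pools of 7 days and at 0 to 1.17 CPM in those of 30 days. It was not tested in the main fit of the ONP and passed the filter here through the ONH, so that no change is read from this call.

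**Figure D3:**
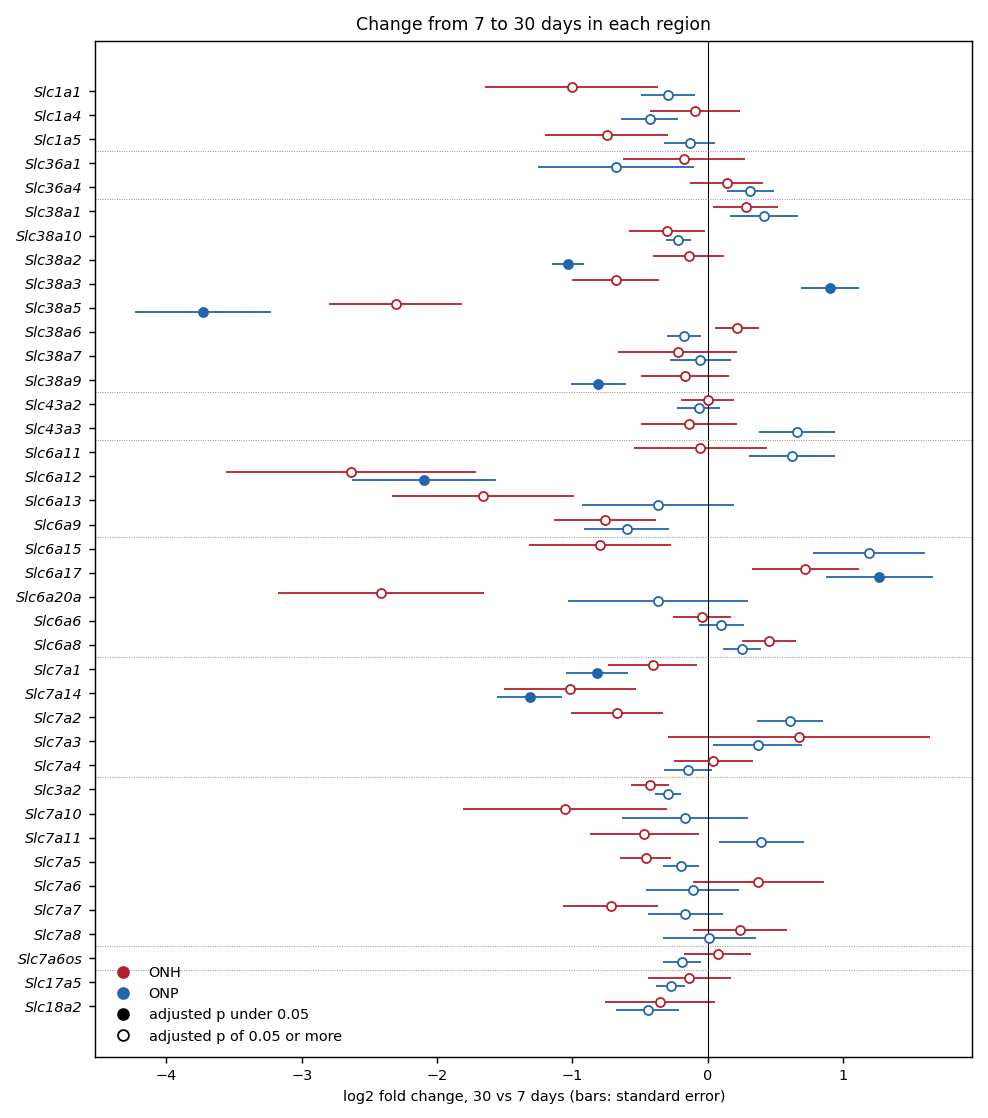
log2FC of 30 vs 7 days in the ONH (red) and the ONP (blue) for 39 members tested in both regions with a standard error under 1, grouped by family. Bars are standard errors and filled points have an adjusted p under 0.05. All filled points are ONP, with Slc38a5 at -3.73 farthest below 0.

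Markers of other cell types moved over the same time in the ONP. Of 8 endothelial markers, 5 were lower at 30 days (Pecam1, Cldn5, Tek, Tie1 and Esam), and their sum was 120.2 to 166 CPM at 7 days and 11.7 to 99.9 CPM at 30 days. Among the 30 day ONP pools, replicates 5, 7 and 4 had the highest sums (99.9, 52.7 and 45.7 CPM). They also had the highest Slc38a5 of that group (6.34, 5.44 and 3.34 CPM). Among the 7 day ONP pools the highest sum, 166.5 CPM in pool 5, came with the lowest Slc38a5 (32.9 CPM). Pools 3, 1, 5 and 6 of the ONH at 7 days had sums of 31.8, 110.9, 293.8 and 369.6 CPM. Their Slc38a5 was at 5.47, 10.1, 10.5 and 22.5 CPM in the same order. Oligodendrocyte markers were lower for 6 of 7 (81300 to 109000 CPM at 7 days, 25800 to 84600 CPM at 30 days). Microglial markers passed the test for 0 of 7 (1300 to 2200 CPM at 7 days, 208 to 3420 CPM at 30 days). Of 7 astrocyte markers 1 was higher, with sums of 14300 to 20200 CPM at 7 days and 14500 to 31800 CPM at 30 days. Of the other lists, 2 of 5 mural cell, 2 of 4 pigment epithelium, 1 of 4 tested photoreceptor, 1 of 5 tested surface epithelial and 1 of 3 Mueller glia markers were lower. Among 8 tested neuronal markers 1 was higher and 2 were lower. No precursor, fibroblast or melanocyte marker passed. No endothelial, oligodendrocyte or microglial marker was at 0 in a whole group. The part of these lists in the change of the carriers was not tested.

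In the ONH, 0 of 45 members tested passed between 7 and 30 days, as did 0% of the 15668 genes tested. At an unadjusted p under 0.05 there were 8 members and 2179 genes (13.9%). DESeq2 called 2 members, Slc38a5 (adjusted p = 0.00269) and Slc36a2 (adjusted p = 0.0234), and limma-voom called 0. Of the 45, 34 had a log2FC below 0 and 11 above, with a median of -0.32 for the members, -0.019 for all genes and -0.10 for the members without pool 6 of 7 days. Slc38a5 was at 10.1, 5.47, 10.5 and 22.5 CPM at 7 days and ranged from 0.820 to 5.86 CPM (median 2.46) at 30 days, with 6 of 7 pools below the lowest 7 day pool (log2FC -2.31, SE 0.49, adjusted p = 0.18). Slc3a2 was at 220.4, 200.1, 236 and 330.4 CPM at 7 days and ranged from 166 to 197 CPM (median 183) at 30 days, without overlap (log2FC -0.43, SE 0.14, adjusted p = 0.236). Slc7a5, its light chain, was at 63.5, 57.8, 41.9 and 49.3 CPM against 27.7 to 51.9 CPM (median 38), with 5 of 7 pools below the earlier range (log2FC -0.46, SE 0.19, adjusted p = 0.31). Slc3a2 and Slc36a2 were the 2 members without overlap, against 2.25% of all genes tested.

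No cell type marker passed over time in the ONH. The log2FC was below 0 for 8 of 8 endothelial, 5 of 5 mural cell, 7 of 7 fibroblast, 5 of 5 surface epithelial and 6 of 6 photoreceptor markers, with medians of -2.05, -1.39, -1.499, -3.66 and -1.86. Endothelial sums were 31.8 to 370 CPM at 7 days and 26.1 to 102 CPM at 30 days, and fibroblast sums 656 to 2180 and 444 to 906 CPM. Their part in the values of the carriers was not tested.

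Slc6a12, Slc6a13 and the imino acid carrier Slc6a20a had ONH log2FC of -2.63, -1.66 and -2.42 over time (adjusted p = 0.252, 0.307 and 0.22), which rested on 1 pool. Pool 6 of 7 days held 109 CPM of Slc6a12, 238 CPM of Slc6a13 and 242 CPM of Slc6a20a, against 2.95 to 13.1, 8.91 to 47.5 and 8.82 to 50.1 CPM in the other 7 day pools. Without it the log2FC were -0.35, -0.001 and -0.67. The same pool had the highest sum of 7 meningeal and scleral fibroblast markers, 2182 CPM against 444 to 1039 CPM in the other ONH pools. Its photoreceptor sum was also the highest. So were its sums of endothelial (369.6 CPM), mural cell (399.5 CPM), pigment epithelium (2839 CPM) and melanocyte markers (533.8 CPM). Whether cells of any of these lists carried the mRNA of these carriers was not tested. The exons of Slc6a20a overlap the antisense gene Gm17120, and reads shared with its near copy Slc6a20b could be split between both genes.

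**Figure D4:**
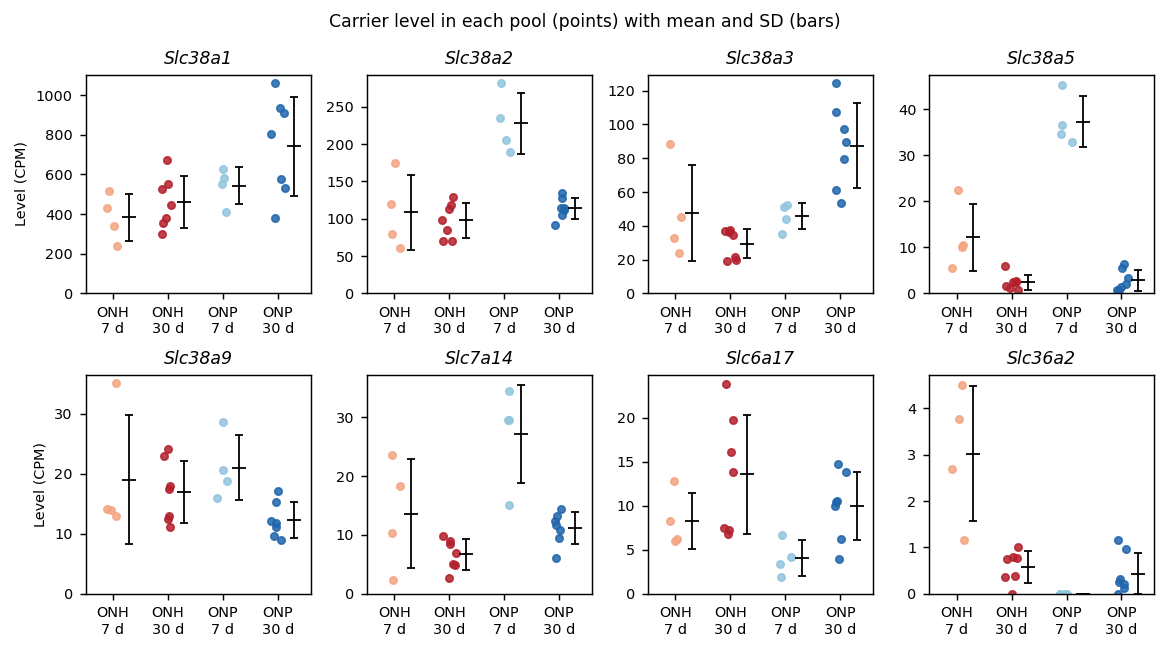
CPM of 8 carriers in each pool (points) with the mean and SD of each group (bars, cut at 0), for the ONH and the ONP at 7 and 30 days. Slc38a2, Slc38a5 and Slc7a14 have their highest group in the ONP at 7 days, Slc38a3 and Slc38a1 theirs in the ONP at 30 days, and Slc36a2 is at 0 in all 4 ONP pools of 7 days.

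Whether the change over time differed between the regions was tested as an interaction, ONP change minus ONH change, over all 22 libraries. Of 48 members tested, 1 passed (2.08%, against 0.543% of the 16748 genes tested). This was Slc36a2, which passed the filter through the ONH pools of 7 days and ranged from 0 to 1.01 CPM (median 0.748) in the ONH and from 0 to 1.17 CPM (median 0.244) in the ONP at 30 days, after 1.15 to 4.50 CPM in the ONH and 0 in the ONP at 7 days. Because the ONP was at 0 in all 7 day pools, the fitted value of 8.56 depends on the prior count and is no measure of size (adjusted p = 0.0321). It is not read as a difference between the regions. In limma-voom the adjusted p was 0.0633, and the call held in 12 of 22 fits that left out 1 pool. It was lost without replicate 2 of the ONH or 1, 2 or 6 of the ONP at 30 days and without pool 1 or 3 of the ONH or any ONP pool of 7 days (adjusted p 0.05 to 0.0917). Slc38a3, with a log2FC of 0.90 in the ONP and -0.68 in the ONH, had an interaction of 1.59 (SE 0.41, adjusted p = 0.075, and 0.0129 in DESeq2). The interactions were -0.89 (SE 0.30, adjusted p = 0.195) for Slc38a2 and -1.42 (SE 0.76, adjusted p = 0.453) for Slc38a5, so that their changes in the ONP were not shown to differ from those in the ONH. Both regional changes and their difference share the same pools.

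Genes that make, break down or sense amino acids were read beside the carriers from lists with 39 enzymes, 22 genes of the ATF4 response and 34 genes of lysosomal sensing and mTORC1. At 30 days, 17 of 36 enzymes tested differed between the regions, 14 lower and 3 higher in the ONH (47.2%, against 41.8% of all genes, with 20% lower and 21.8% higher). The serine synthesis enzymes Phgdh and Psat1 were at 360 and 328 CPM in the ONH and at 652 and 649 CPM in the ONP (log2FC -0.82 and -0.94, adjusted p = 7.68e-05 and 3.49e-05). Cdo1, which oxidises cysteine on the way to taurine, was at 9.66 against 42.4 CPM (log2FC -2.09, adjusted p = 3.71e-07). The creatine synthesis enzyme Gatm was at 571 against 1390.0 CPM (log2FC -1.24, adjusted p = 0.000219). At 7 days 9 of 36 enzymes differed (25%, against 13.2% of all genes), 6 lower and 3 higher in the ONH. Of the 34 sensing and mTORC1 genes, 6 were higher and 9 lower in the ONH at 30 days (44.1%), and 3 were higher and 2 lower at 7 days (14.7%), shares near those of all genes.

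Of the 22 genes of the ATF4 list, 5 were higher and 6 lower in the ONH at 30 days (50%, against 41.8% of all genes). Atf4 itself was at 50.3 against 25.99 CPM (log2FC 0.99, adjusted p = 0.000935), and the stress genes Ddit3 and Nupr1 were at 156 against 76.2 CPM and at 488 against 115 CPM (log2FC 1.08 and 2.12, adjusted p = 1.88e-05 and 4.44e-08). Lower in the ONH were the kinase Eif2ak4, the folate enzyme Mthfd2, the receptor Vldlr and the tRNA synthetases Aars, Gars and Wars. At 7 days 5 of 21 tested were higher in the ONH and 1 was lower (28.6%, against 13.2% of all genes), Atf4 again among the higher (log2FC 1.06, adjusted p = 0.0128). Over time in the ONP, 2 of 21 were higher at 30 days (Ddit3, log2FC 0.42, and Atf5, log2FC 1.36) and 0 lower (9.52%, against 17% of all genes), while 7 enzymes were higher and 4 lower of 36 tested (30.6%).

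The enzymes that changed in the ONP included Glul, the glutamine synthetase. It was at 774 CPM at 7 days and 447 CPM at 30 days (log2FC -0.83, adjusted p = 0.0324). Of 7 oligodendrocyte markers 6 were also lower at 30 days, and their part in the values of Glul was not tested. Maob, which breaks down monoamines, rose from 15.8 to 52.3 CPM (log2FC 1.69, adjusted p = 0.00199), and Cdo1 from 15.9 to 42.4 CPM (log2FC 1.38, adjusted p = 0.00128). Of 34 genes of lysosomal sensing and mTORC1, 5 were higher at 30 days and 4 lower (26.5%). Lamtor2, a subunit of the lysosomal scaffold, rose from 28.4 to 49.6 CPM (log2FC 0.77, adjusted p = 0.00163), and the mTORC1 inhibitor Tsc1 fell from 25.9 to 13.1 CPM (log2FC -1.02, adjusted p = 0.00415). In the ONH over time, 0 genes of the 3 lists passed, and in the interaction 1 did, Maob (log2FC 1.85, adjusted p = 0.0495).

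**Figure D5:**
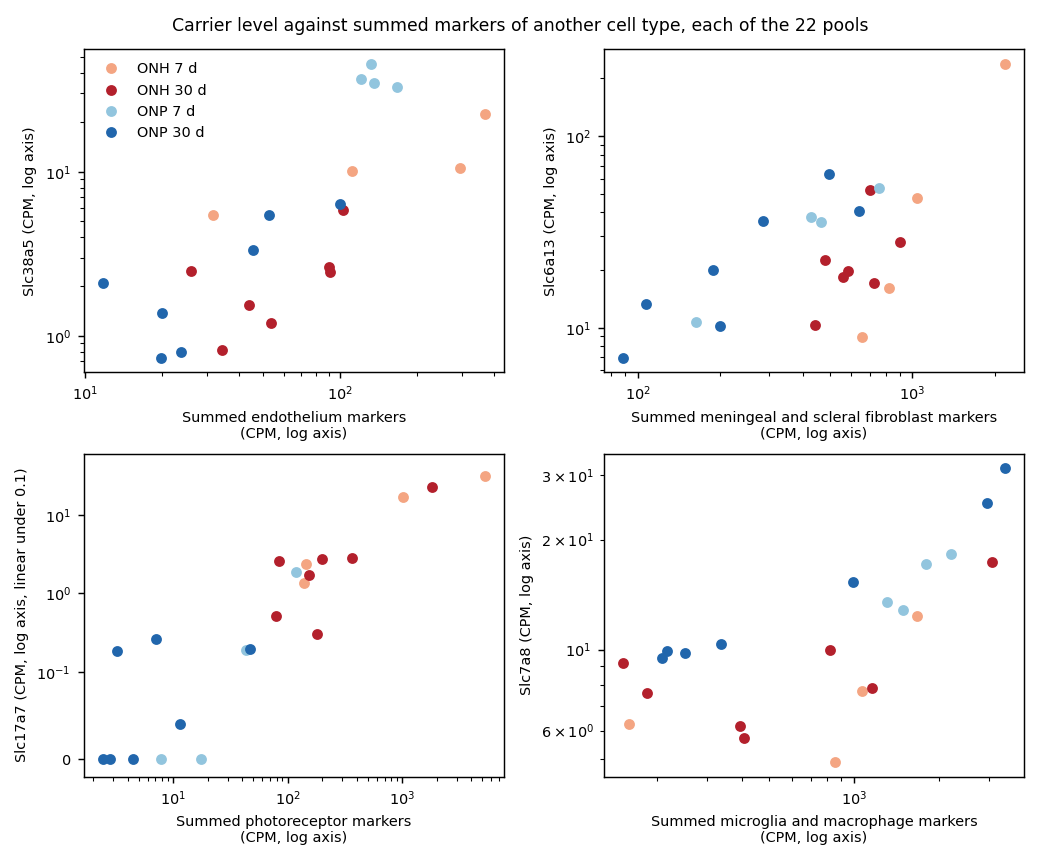
CPM of 4 carriers against the summed CPM of markers of another cell type in each of the 22 pools, on log axes (linear under 0.1 for Slc17a7). Slc38a5 is plotted against endothelial, Slc6a13 against fibroblast, Slc17a7 against photoreceptor and Slc7a8 against microglial markers. The single pools highest in Slc6a13, Slc17a7 and Slc7a8 have the highest sums of those markers. For Slc6a13 and Slc17a7 this is the same ONH pool of 7 days, which is also highest in endothelial, mural cell, pigment epithelium and melanocyte markers.

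The carrier Slc7a8 was at 25.2 and 31.4 CPM in replicates 5 and 7 of the ONP at 30 days, the pools with the highest microglial sums (2950 and 3421 CPM), and at 9.47 to 15.3 CPM in the other 5. For Slc38a5, Slc6a13, Slc17a7 and Slc7a8 the plot of carrier level against marker sums gives these values for all pools. Whether the carrier mRNA came from the cells of those markers was not tested.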

How the data were processed

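Ribosome bound mRNA of optic nerve astrocytes was collected by immunoprecipitation of HA tagged Rpl22 from pools of 4 mice and sequenced from 22 libraries. The authors deposited expected counts per gene, estimated with Salmon 0.14.2 against Ensembl annotation of the mm10 genome, with STAR 2.6.1d for alignment, and summarised per gene. The deposited table holds whole numbers, so no rounding changed a value. The deposited variance stabilised log2 table was not used. The kit does not mark strand as far as the sources used here say. Per the study's methods, the libraries were prepared and sequenced together.

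Members, gene lists and marker lists were chosen with earlier results of these data known. Values in every pool are given for members with an adjusted p under 0.05 in any comparison (at most 12 per comparison) and for Slc38a5, Slc36a2, Slc7a5 and Slc3a2. Counts were tested with edgeR 4.0.16 (R 4.3.3) by quasi-likelihood after TMM scaling and filterByExpr (minimum count 10), on the libraries of each comparison, or on all 22 for the interaction, with p-values adjusted across all tested genes by Benjamini-Hochberg and a threshold of 0.05 without a fold limit. CPM used TMM over all libraries. Lengths are merged GENCODE M21 exons (GRCm38). Alternatives were DESeq2 1.42.0, limma-voom (limma 3.58.1) with quality weights, other scalings, no filter, all 4 groups in 1 fit, a replicate block and leaving out each library. The scripts were tested on simulated data. The ONH and ONP pools of 30 days came from the same mice, but no source used here says that equal replicate numbers mark the same mice. The most alike libraries correlated at 0.975, and none were taken as duplicates. The values of 1 member are not reported here.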

Additional observations from a re-analysis of the deposited data

Results flagged for a closer look

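A single pool stood apart from the others of its group, by Dixon's test, in 9 of 91 groups of a member with values by pool. The nominal rate of this test, 1 in 20, holds for independent groups of normally distributed values. These CPM values are skewed, include zeros and come from shared libraries, so that the count is not compared with that rate. Slc6a12 reached 108.8 CPM in pool 6 of the ONH at 7 days, with 13.05 CPM in the next pool, and 12.12 CPM in replicate 4 of the ONP at 30 days, with 5.971 CPM in the next. Slc38a9 was at 35.14 CPM in pool 5 of the ONH at 7 days against at most 14.05 CPM in the other 3. Replicate 5 of the ONH at 30 days was highest for Slc38a5 (5.862 CPM, next 2.611) and for Slc6a19 (2.164 CPM, next 0.8628). Slc43a2 was low in replicate 6 of the ONH at 30 days (29.78 CPM, next 43.83). Slc1a7 was high in replicate 4 of the ONH (3.246 CPM, next 1.054) and of the ONP (0.3251 CPM, next 0.04952) at 30 days and in pool 5 of the ONP at 7 days (0.2485 CPM, with the other 3 at 0).

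Slc36a2 passed the test of the interaction between region and time, with a fitted value of 8.564 (adjusted p = 0.0321) whose size is set by the zero counts of the ONP at 7 days. It passed the filter on low counts through the ONH of that time, and the call was lost in limma-voom (adjusted p = 0.0633) and in 10 of 22 fits that left out 1 pool, so that no difference between the regions is read from it.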

How the results depend on the processing

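Depth limits the members under about 0.192 CPM, and 4 pools per region limit the 7 day comparisons. The count of members called stayed within 1.5 times the main count in the settings not named here. For the ONH over time, 0 members were called, against 2 in DESeq2 and 1 with all 4 groups in 1 fit (all genes 446 and 292, and 28 without the pools of high photoreceptor sums), and 0 in each fit that left out 1 pool. For the ONP over time, the count went from 9 to 3 with all groups in 1 fit (all genes 1189) and to 14 without the pools of high microglial sums, and ran from 5 to 12 when each pool was left out. For the regions at 7 days, DESeq2 called 11 members and the fit of all groups 12, against 7 (all genes 3211 and 3785 against 1940), and 4 to 8 when each pool was left out. At 30 days the range was 14 to 17. For the interaction, DESeq2 called 2 members, limma-voom 0 and the replicate block 0, against 1, with 0 to 2 when each pool was left out (all genes 91, against 409 in DESeq2, 55 in limma-voom, 161 with the block, 50 without a filter and 564 without the pools of high marker sums). The cause was not tested, other than that the last settings use fewer libraries. Scaling by library size alone moved the median log2FC of the members tested from -0.167 to -0.052 in the ONP over time. Between regions at 7 days it went from -0.147 to -0.027, and in the interaction from 0.168 to 0.32. In the same order, the share of calls over all genes that were higher went from 45.9% to 66.7%, from 48.2% to 62.4% and from 27.5% to 53.6%.

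Equal replicate numbers were not shown to pair the 30 day pools: the median correlation of their deviations was 0.207 over 16690 genes, 5 of 7 pairs were over 0.1 and 3 of 7 pools correlated best with their own number. With the number as a block, 19 members differed between the regions against 16, with Slc7a8 (log2FC -0.69, adjusted p = 0.00638), Slc43a3 (-0.59, 0.0342) and Slc6a20a (-0.85, 0.043) added, and the block ended no member's call in that comparison. No paired analysis was possible for the other simple comparisons because the 7 day columns carry numbers that do not match the labels.

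The sign turned for 2 members that were not called there. The log2FC of Slc38a5 between regions at 30 days was 0.46 in limma-voom and 0.56 without the ONP pools of high microglial sums, against -0.19. It ran from -0.58 to 0.11 when each pool was left out (0.11 and 0.032 without replicates 5 and 7 of the ONP). For Slc3a2 the value between regions at 30 days was 0.007 without the ONP pools of high microglial sums. At 7 days it was -0.18 without the pools of high photoreceptor sums and ran from -0.084 to 0.17 when each pool was left out, and in the interaction it was -0.19 without both kinds of pools and ran from -0.001 to 0.23.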
